A study of Homo sapiens with 12 samples.

Results

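The MAP kinase phosphatase genes of the DUSP (dual-specificity phosphatase) family were followed in the BEAS-2B line, which derives from normal human bronchial epithelium and was immortalised with viral genes. The members were 10 genes given by name, DUSP1, DUSP2, DUSP4, DUSP5, DUSP6, DUSP7, DUSP8, DUSP10, DUSP14 and DUSP16, among 28395 gene identifiers in the count table. The rule takes them by gene name and uses no measured value, although the list was drawn up with earlier results of these data known. DUSP9, a further phosphatase of ERK, is not among them. RNA sequencing covered 12 libraries in 4 groups of 3. All cells were kept for 24 h in medium free of serum and steroids. The control group was then left untreated, the TGF-β1 group received 40 pM TGF-β1 for 24 h, the dexamethasone group received 30 nM dexamethasone for 4 h, and the combined group received 40 pM TGF-β1 for 24 h and then 30 nM dexamethasone for a further 4 h. By these times the combined cells may have been collected 4 h later after TGF-β1 began than the TGF-β1 cells. Any effect of that time cannot be told apart from dexamethasone wherever these groups are compared. By the same times the dexamethasone cells, and perhaps the control cells, may have been collected earlier than cells with TGF-β1. Any effect of that difference cannot be told apart from TGF-β1. TGF-β1 signals through SMAD factors and through MAP kinases, and dexamethasone acts by way of the glucocorticoid receptor. The labels speak of biological triplicates of this 1 cell line without naming separate cultures, so p-values measure the spread between these samples, which may be technical.

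MAP kinases (ERK, JNK and p38) are active when a threonine and a tyrosine of their activation loop are both phosphorylated, and DUSP phosphatases of this family remove both phosphates. Most members carry a kinase-binding domain beside the catalytic domain, and they differ in where they sit and which kinase they prefer. DUSP1, DUSP2, DUSP4 and DUSP5 are nuclear, DUSP6 and DUSP7 are cytoplasmic and prefer ERK, DUSP8, DUSP10 and DUSP16 prefer JNK and p38, and DUSP14 is a small atypical member that lacks the kinase-binding domain. Several of these genes are themselves transcribed in response to MAP kinase activity, and DUSP1 is known as a glucocorticoid-induced gene that limits p38 and JNK signalling in airway epithelium.

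The promoters of DUSP1 and DUSP8 are shown because they were the 2 members whose upstream windows held the cAMP response element (CRE) letters TGACGTCA, and their transcripts moved in opposite directions after dexamethasone. The RefSeq promoter table (GRCh38.p14) matched 8 of the 10 members, and the 250 bases upstream of each start were searched on both strands. The DUSP1 window is chr5:172771196-172771445 and the DUSP8 window is chr11:1572272-1572521, both on the minus strand, and neither overlaps an exon of GENCODE release 29. The DUSP1 window lies just outside the RefSeq span of its gene (172768096 to 172771195). The DUSP8 window lies inside the span of its gene (1554051 to 1572848), so it is upstream only of an internal annotated start. Capitals mark TGACGTCA, whose first base lies 125 bases before the start in DUSP1 and 118 and 74 bases before it in DUSP8.
DUSP1: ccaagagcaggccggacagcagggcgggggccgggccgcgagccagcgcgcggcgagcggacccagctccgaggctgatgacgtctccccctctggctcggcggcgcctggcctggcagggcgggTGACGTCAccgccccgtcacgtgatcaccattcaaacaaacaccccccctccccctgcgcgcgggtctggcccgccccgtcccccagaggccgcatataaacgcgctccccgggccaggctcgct
DUSP8: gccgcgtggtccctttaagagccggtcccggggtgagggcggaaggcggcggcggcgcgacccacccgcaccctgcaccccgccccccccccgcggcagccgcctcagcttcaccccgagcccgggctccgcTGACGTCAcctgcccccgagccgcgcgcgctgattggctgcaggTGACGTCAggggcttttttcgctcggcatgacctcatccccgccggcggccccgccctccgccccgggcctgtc
Among all 35116 windows of this length, 1.65% held TGACGTCA. The other motifs searched occurred in 0 of the 8 matched members. These were the full glucocorticoid response element, AGAACA and TGTTCT parted by 3 bases of any kind (0.00285% of windows), its half-site AGAACA, which also lies within the full element (12.4%), GTCTAGAC, the SMAD palindrome (0.182%), AGCCAGACA, the CAGA box (0.231%), and TGANTCA, the AP-1 site (6.57%). A match describes letters in these windows and does not show binding. An absence covers these windows only and does not bear on sites elsewhere. The unmatched members were DUSP4 and DUSP5, which were not searched.

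Total counts per library ran from 5861591 to 7008203 in replicates 1 and 2 and from 17968961 to 19727235 in replicate 3. Each effect is a log2 fold change with a standard error (SE). It was tested by edgeR's quasi-likelihood method with Benjamini-Hochberg adjustment across all 13469 genes that cleared a filter on low counts, and "past the test" means an adjusted p under 0.05. Of the 10 members 9 passed that filter, and DUSP2 did not. Libraries with the same replicate number deviated together in all groups, so a second fit took the replicate number as a block, and its p is given where it changes a call. All 5 glucocorticoid check genes rose with dexamethasone and all 5 TGF-β1 check genes rose with TGF-β1. Scaled by library size alone, 1251 genes were higher and 4332 lower with TGF-β1, in place of 2186 and 2230. The same scaling gave 1325 higher and 4472 lower for the combination against dexamethasone, in place of 2145 and 2207, and 1416 and 5342 for the combination against control, in place of 2491 and 2434.

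The growth protocol names A549 lung adenocarcinoma cells where all other label fields name BEAS-2B. All 10 bronchial epithelial markers passed the filter, against 2 of 10 A549 markers, AKR1B10 and CPS1, with FGA and NTS at 0 reads in every library. The epithelial markers summed to 3107 to 4132 CPM (counts scaled to a common library total) in control, 3173 to 4635 with TGF-β1, 3760 to 5231 with dexamethasone and 4884 to 6912 with both. With TGF-β1, 2 of them rose and 4 fell, where 32.8% of all tested genes passed the test. With dexamethasone 1 rose and 1 fell, where 10.4% of all tested genes passed. With the replicate block 6 rose and 2 fell with dexamethasone, where 22.2% of all tested genes passed. The fibroblast list had 2 of 7 genes past the filter, PDGFRB and THY1, and summed to 250.8 to 380.6 CPM in control and 504.9 to 724.5 with TGF-β1, while its defining genes DCN and LUM stayed at or below 0.309 CPM. The leukocyte list (2 of 6 tested) summed to between 12.2 and 21.2 CPM and the endothelial list (2 of 5) to between 1.77 and 5.72 CPM over all libraries. The part of these shifts in the results below was not tested, and in bulk RNA a change in the share of cells of a type and a change in RNA per cell cannot be told apart.

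Each treatment moved several of the phosphatase genes, and in both directions. TGF-β1 raised DUSP7 and DUSP10 and lowered DUSP4, DUSP5 and DUSP8, so 5 of 9 tested members passed the test, where 32.8% of all tested genes did (16.2% higher and 16.6% lower). Dexamethasone raised DUSP1 and lowered DUSP4, DUSP5, DUSP8 and DUSP14, which is again 5 of 9, where 10.4% of all tested genes passed (5.54% higher and 4.90% lower). The combination against control changed 7 of 9, with DUSP1, DUSP7 and DUSP10 higher and DUSP4, DUSP5, DUSP8 and DUSP16 lower, where 36.6% of all tested genes passed (18.5% higher and 18.1% lower). The median log2 fold change of the 9 members was -0.55 with TGF-β1, -0.39 with dexamethasone and -0.33 with both, against -0.009, 0.004 and -0.011 over all tested genes. The 3 comparisons share the control libraries.

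Added to cells already treated with TGF-β1, dexamethasone raised DUSP1 and lowered DUSP8 and DUSP16, 3 of 9 members, where 8.11% of all tested genes passed (5.09% higher and 3.01% lower). With the replicate block 4 members were higher and 4 lower in that comparison, where 17.5% of all tested genes passed. Added TGF-β1 on the dexamethasone background raised DUSP7 and DUSP10 and lowered DUSP4, DUSP5 and DUSP8, 5 of 9 members, where 32.3% of all tested genes passed (15.9% higher and 16.4% lower). With the block 4 rose and 3 fell there, against 49.9% of all tested genes. For TGF-β1 against control the block gave 2 higher and 5 lower, against 50.0% of all tested genes. For dexamethasone against control it gave 1 higher and 5 lower, against 22.2%. Scaled by library size alone, 2 members were higher and 5 lower with TGF-β1, where 1251 of all tested genes were higher and 4332 lower. The median gene stood at -0.217 there, in place of -0.009. For the combination against TGF-β1 that scaling gave 1 member higher and 4 lower, with the median gene at -0.062 in place of -0.011. The share of all tested genes past the test there is not given, so these member counts have no background.

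**Figure D1:**
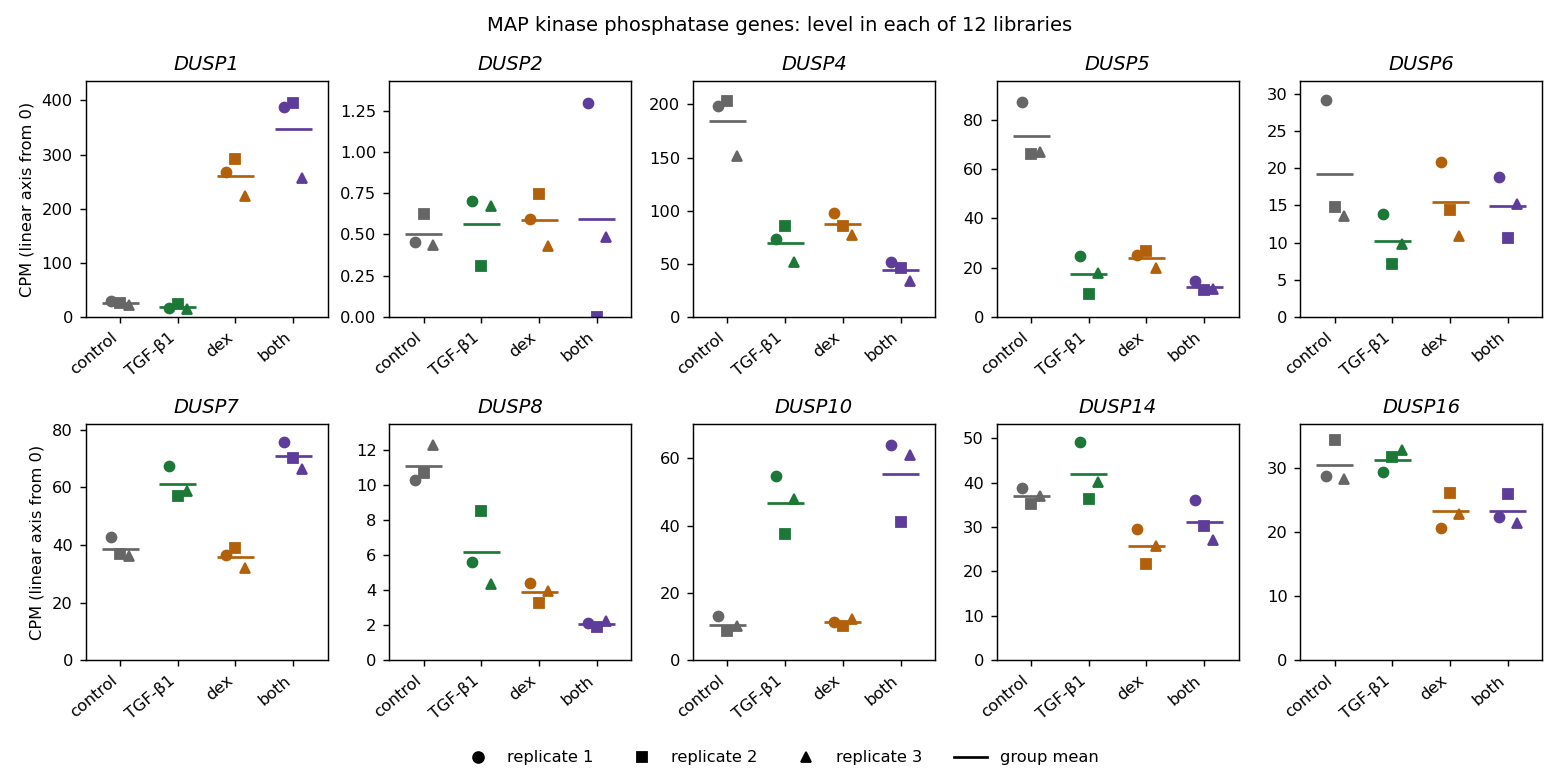
Level of each of the 10 phosphatase genes in CPM (linear axes from 0, 1 panel a gene) in the 12 libraries, with the replicate number as the symbol and the group mean as a line. DUSP1 lay between 223.9 and 396.1 CPM in the 6 libraries with dexamethasone and at or below 30.2 in the 6 without it, and DUSP10 lay between 37.4 and 64.0 CPM in the 6 libraries with TGF-β1 and at or below 13.0 in the others.

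Levels of different genes are compared per kilobase of exon (CPM per kb), with lengths from the exon union of GENCODE release 29, which may not be the annotation used for counting. In control cells DUSP5 (28.1 CPM per kb) and DUSP4 (25.4) were highest and their libraries overlapped, followed by DUSP14 (14.8) and DUSP1 (12.9), which also overlapped each other. DUSP7 (6.85 CPM per kb), DUSP16 (5.34), DUSP6 (4.14), DUSP10 (3.64) and DUSP8 (2.41) followed, and DUSP2 was last at 0.261. With TGF-β1 the order began with DUSP14 (16.8 CPM per kb) and DUSP10 (16.03), which overlapped. With dexamethasone DUSP1 was first at 129.3 CPM per kb and DUSP4, the next, had 11.99, with no overlap. With both, DUSP1 had 172.0 CPM per kb, and DUSP10 was second at 19.0.

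DUSP1, on the minus strand of chromosome 5 (172768096 to 172771195), had the largest dexamethasone effect of the members. It measured 30.2, 25.8 and 22.5 CPM in the 3 control libraries and 267.6, 291.7 and 223.9 CPM in the 3 dexamethasone libraries. In the combined libraries it measured 388.1, 396.1 and 257.5 CPM. Every library with dexamethasone lay far above every library without it. Dexamethasone against control gave a 10.1-fold rise (log2 fold change 3.34, SE 0.21, edgeR adjusted p = 5.19e-07). On the TGF-β1 background the rise was 19.6-fold (4.29, SE 0.22, edgeR adjusted p = 1.50e-07).

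TGF-β1 alone had DUSP1 at 15.9, 23.3 and 14.7 CPM, and the TGF-β1 and control libraries overlapped. The log2 fold change was -0.55 (SE 0.22, edgeR adjusted p = 0.0788, and 0.00126 with the replicate block). It was also past the test with DESeq2 (adjusted p = 0.0394) and when scaled by library size alone (0.0216 at -0.75). TGF-β1 replicate 2 lay within the control range, and without it the adjusted p was 0.0182 at -0.76, and without replicate 2 of every group 0.0250. Leaving out replicate 3 of the combined group gave 0.0306 at -0.55. The combination against dexamethasone alone had 0.41 (SE 0.19, edgeR adjusted p = 0.115, and 0.000664 with the block), with combined replicate 3 the lowest of its group. Without that library it was 0.59 (adjusted p = 0.0183), and without replicate 3 of every group 0.49 (0.0419).

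DUSP4, a nuclear phosphatase that acts on ERK, JNK and p38, fell with each treatment. Control libraries held 198.9, 203.0 and 151.4 CPM, TGF-β1 libraries 73.2, 85.2 and 51.4 CPM, and dexamethasone libraries 98.2, 85.7 and 77.2 CPM. The combined libraries held 51.5, 45.8 and 34.1 CPM. All treated libraries lay below all control libraries. The fall was 2.66-fold with TGF-β1 (log2 fold change -1.41, SE 0.20, edgeR adjusted p = 0.000161), 2.12-fold with dexamethasone (-1.08, SE 0.19, edgeR adjusted p = 0.00251) and 4.25-fold with both (-2.09, SE 0.20, edgeR adjusted p = 7.20e-06).

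The combination was lower than dexamethasone alone by 2.005-fold in DUSP4 (SE 0.20 on the log2 scale, edgeR adjusted p = 0.00238). Against TGF-β1 alone DUSP4 had -0.68 (SE 0.20, edgeR adjusted p = 0.0663, and 4.22e-05 with the block), and the libraries of those groups overlapped by the lowest TGF-β1 library. Without TGF-β1 replicate 3, which is that library, the adjusted p was 0.0104 at -0.87, and without replicate 3 of every group 0.00897 at -0.70. It was also under the threshold with DESeq2 (0.0134) and with library size alone (0.0468). The dexamethasone fall of DUSP4 had an adjusted p of 0.0647 when replicate 1 of every group was left out (-1.13).

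DUSP5, a nuclear phosphatase selective for ERK, lies on the plus strand of chromosome 10 (110497907 to 110511533). It measured 87.2, 66.1 and 66.9 CPM in control, 24.5, 9.43 and 17.8 CPM with TGF-β1, 25.3, 26.8 and 19.96 CPM with dexamethasone, and 14.6, 10.8 and 11.2 CPM with both. The lowest control library was above the highest treated library by more than the whole range of any treated group. DUSP5 fell 4.25-fold with TGF-β1 (log2 fold change -2.09, SE 0.25, edgeR adjusted p = 4.56e-05), 3.09-fold with dexamethasone (-1.63, SE 0.24, edgeR adjusted p = 0.000606) and 6.06-fold with both (-2.60, SE 0.26, edgeR adjusted p = 8.74e-06). Within each replicate number the fall with both was between -2.62 and -2.58 on the log2 scale.

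The combination had less DUSP5 than dexamethasone alone (-0.97, SE 0.27, edgeR adjusted p = 0.0151). That call was lost without dexamethasone replicate 2 (adjusted p = 0.0504), without combined replicate 3 (0.0702) and without the filter on low counts (0.0562). It was also lost without replicate 3 of every group (0.135 at -1.03). Against TGF-β1 alone the log2 fold change was -0.51 (SE 0.27, edgeR adjusted p = 0.394), and it became -0.77 (adjusted p = 0.0292) without TGF-β1 replicate 2, the lowest library of its group. Without replicate 3 of every group the dexamethasone fall of DUSP5 had an adjusted p of 0.0562 (-1.56). RefSeq lists 2 pseudogenes named after DUSP5, of which DUSP5P1 held 78 reads over the 12 libraries beside 4009 for DUSP5, and how reads shared with such copies were counted is not given.

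DUSP2, a nuclear phosphatase known mainly from lymphoid cells, was close to the detection limit. Its reads summed to 16 in control (95% Poisson interval 9.14 to 26.0), 18 with TGF-β1 (10.7 to 28.4), 18 with dexamethasone (10.7 to 28.4) and 16 with both (9.14 to 26.0), intervals that cover counting error only. Single libraries held 0 to 12 reads. Combined replicate 2 had 0 reads, which allows up to 0.522 CPM at 3 reads. The sums were alike and their intervals wide, so a moderate difference between groups could not be seen at this depth. No test was made.

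DUSP6, a cytoplasmic phosphatase selective for ERK, is itself switched on by ERK signalling in many cells. It measured 29.1, 14.7 and 13.6 CPM in control, 13.8, 7.11 and 9.76 CPM with TGF-β1, 20.9, 14.4 and 10.9 CPM with dexamethasone and 18.8, 10.6 and 15.2 CPM with both. The groups overlapped, and replicate 1 was the highest library in 4 of 4 groups. TGF-β1 gave a log2 fold change of -0.89 (SE 0.36, edgeR adjusted p = 0.0790, and 0.000677 with the block), with all 3 replicate numbers lower by 0.48 to 1.07. That effect was also past the test with DESeq2 (adjusted p = 0.0287) and with library size alone (0.0210 at -1.10). Dexamethasone gave -0.32 (SE 0.34, edgeR adjusted p = 0.734), and the combination against TGF-β1 gave 0.56 (SE 0.36, edgeR adjusted p = 0.527, and 0.0306 with the block).

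An antisense lncRNA, AC024909.2, overlaps 1875 bases of DUSP6 exon on the opposite strand. The library kit does not keep strand, so its reads and those of DUSP6 cannot be told apart. By GENCODE release 29, 0 of the other members share exon bases with another gene.

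DUSP7, the other cytoplasmic phosphatase, followed TGF-β1. It measured 42.9, 36.9 and 36.2 CPM in control and 67.5, 57.0 and 58.8 CPM with TGF-β1. With dexamethasone it measured 36.7, 39.1 and 32.1 CPM, and with both 75.8, 70.3 and 66.2 CPM. The 6 libraries with TGF-β1 all lay above the 6 without it. DUSP7 rose 1.58-fold with TGF-β1 (log2 fold change 0.66, SE 0.11, edgeR adjusted p = 0.000254) and 1.98-fold with TGF-β1 on the dexamethasone background (0.98, SE 0.11, edgeR adjusted p = 8.71e-06). Dexamethasone alone gave -0.11 (SE 0.11, edgeR adjusted p = 0.701), and on the TGF-β1 background 0.21 (SE 0.10, edgeR adjusted p = 0.319, and 0.0406 with the block).

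Among the phosphatases that prefer JNK and p38, DUSP10 rose with TGF-β1. It lies on the minus strand of chromosome 1 (221701424 to 221742089). It measured 13.0, 8.69 and 10.1 CPM in control and 54.8, 37.4 and 47.8 CPM with TGF-β1. With dexamethasone it measured 11.2, 10.3 and 12.3 CPM, and with both 64.0, 41.1 and 61.0 CPM. The libraries with and without TGF-β1 formed separate ranges. DUSP10 rose 4.43-fold with TGF-β1 (log2 fold change 2.15, SE 0.20, edgeR adjusted p = 1.96e-06) and 4.86-fold with TGF-β1 on the dexamethasone background (2.28, SE 0.19, edgeR adjusted p = 1.11e-06). Replicate 2 was the lowest library in 4 of 4 groups, yet within the replicate numbers the TGF-β1 effect was close, between 2.07 and 2.25.

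The dexamethasone effect on DUSP10 was 0.12 without TGF-β1 (SE 0.21, edgeR adjusted p = 0.865) and 0.25 with it (SE 0.17, edgeR adjusted p = 0.562, and 0.0350 with the block).

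DUSP8 fell with both agents and was lowest where they were combined. It lies on the minus strand of chromosome 11 (1554051 to 1572848) and measured 10.3, 10.7 and 12.3 CPM in control. With TGF-β1 it measured 5.61, 8.50 and 4.37 CPM, with dexamethasone 4.43, 3.27 and 3.92 CPM, and with both 2.11, 1.91 and 2.25 CPM. Every combined library lay below every library of the other groups, which rests on 61 reads in the combined group and 392 in control. The fall was 1.89-fold with TGF-β1 (log2 fold change -0.92, SE 0.22, edgeR adjusted p = 0.00499), 2.88-fold with dexamethasone (-1.53, SE 0.22, edgeR adjusted p = 0.000299) and 5.25-fold with both (-2.39, SE 0.25, edgeR adjusted p = 4.52e-06).

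Dexamethasone lowered DUSP8 on the TGF-β1 background as well (-1.48, SE 0.26, edgeR adjusted p = 0.00196). The combination against dexamethasone alone had -0.87 (SE 0.27, edgeR adjusted p = 0.0241). That last call was lost without dexamethasone replicate 1 (adjusted p = 0.0705) or 3 (0.0748) and without combined replicate 1 (0.0587), 2 (0.0577) or 3 (0.0605), and without replicate 1 (0.212) or 3 (0.0993) of every group. Without replicate 1 of every group the TGF-β1 fall had an adjusted p of 0.0845 (-0.91) and the dexamethasone fall on the TGF-β1 background 0.0728 (-1.52), and without replicate 3 of every group the TGF-β1 fall was -0.57 (adjusted p = 0.166). RefSeq lists 3 pseudogenes named after DUSP8 on chromosome 10, which were not analysed here.

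DUSP16, which prefers JNK, measured 28.8, 34.5 and 28.4 CPM in control, 29.4, 31.9 and 32.9 CPM with TGF-β1, 20.7, 26.2 and 22.9 CPM with dexamethasone and 22.4, 25.9 and 21.5 CPM with both. The 6 libraries with dexamethasone all lay below the 6 without it. Dexamethasone against control gave a log2 fold change of -0.39 (SE 0.12, edgeR adjusted p = 0.0551, and 0.00292 with the block). It was past the test without dexamethasone replicate 2 (adjusted p = 0.0341) and without combined replicate 2 (0.0491), with DESeq2 size factors (0.0499) and with library size alone (0.0399). TGF-β1 gave 0.05 (SE 0.12, edgeR adjusted p = 0.774), which was -0.16 when scaled by library size alone.

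On the TGF-β1 background dexamethasone lowered DUSP16 by 1.36-fold (-0.45, SE 0.12, edgeR adjusted p = 0.0340). That call was lost without control replicate 1 (adjusted p = 0.0554), TGF-β1 replicate 1 (0.0527), 2 (0.0773) or 3 (0.135), dexamethasone replicate 3 (0.0513), and combined replicate 1 (0.108) or 3 (0.153). It was also lost without replicate 1 (0.258) or 3 (0.425) of every group and when only the groups compared were fitted (0.0549). The fall with both against control (-0.39, SE 0.12, edgeR adjusted p = 0.0195) was lost without control replicate 2 (0.0907), without combined replicate 1 (0.0612) or 3 (0.0866), and without replicate 1 (0.124) or 3 (0.123) of every group.

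DUSP14, the atypical member, lies on the plus strand of chromosome 17 (37488566 to 37513498). It measured 38.8, 35.2 and 37.0 CPM in control, 49.2, 36.3 and 40.1 CPM with TGF-β1, 29.6, 21.7 and 25.7 CPM with dexamethasone and 36.0, 30.3 and 27.1 CPM with both. Dexamethasone libraries lay below control libraries without overlap. Dexamethasone lowered DUSP14 1.44-fold (log2 fold change -0.53, SE 0.14, edgeR adjusted p = 0.0252). The call was lost without control replicate 1 (adjusted p = 0.0848) or 3 (0.0626) and without dexamethasone replicate 2 (0.101) or 3 (0.0803). It was also lost without replicate 2 (0.1005) or 3 (0.1997) of every group. TGF-β1 gave 0.17 (SE 0.14, edgeR adjusted p = 0.363), which was -0.036 when scaled by library size alone.

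On the TGF-β1 background dexamethasone gave -0.44 for DUSP14 (SE 0.14, edgeR adjusted p = 0.0811, and 0.000652 with the block), which passed without TGF-β1 replicate 2 (0.0481) or combined replicate 1 (0.0455), and with library size alone (0.0318). The combination had 0.27 against dexamethasone alone (SE 0.14, edgeR adjusted p = 0.177, and 0.0328 with the block) and -0.26 against control (SE 0.14, edgeR adjusted p = 0.165, and 0.00895 with the block). Scaled by library size alone, the effect against control was -0.52 (adjusted p = 0.00465).

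**Figure D2:**
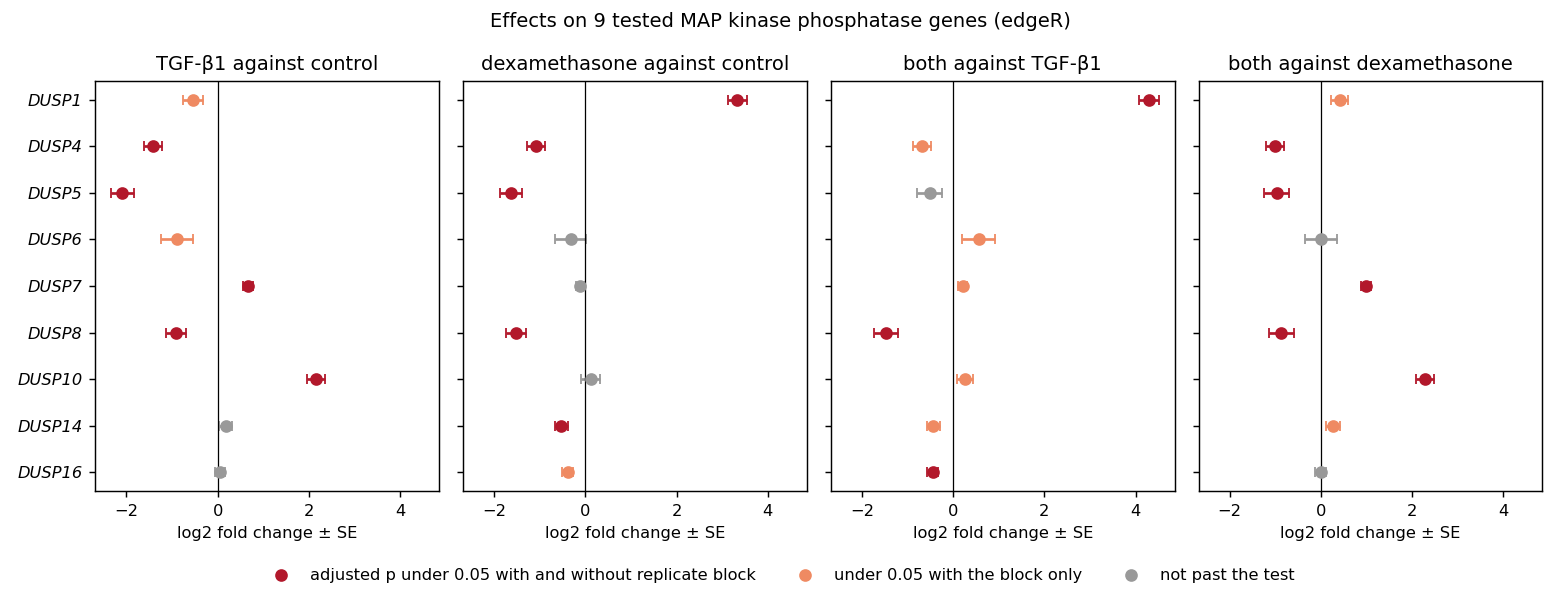
Log2 fold change with its SE for the 9 tested phosphatase genes in 4 comparisons, coloured by whether the edgeR adjusted p was under 0.05 with and without the replicate block, with the block only, or in neither. DUSP1 stands at 3.34 and 4.29 in the dexamethasone comparisons and DUSP10 at 2.15 and 2.28 in the TGF-β1 comparisons.

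Whether the dexamethasone effect differed with TGF-β1 was tested by the interaction, which subtracts the effect of dexamethasone on untreated cells from its effect on TGF-β1-treated cells. No member passed by edgeR's quasi-likelihood test (0 of 9), where 0.884% of all tested genes did. At an unadjusted edgeR p under 0.05 there were 3 members, DUSP1, DUSP5 and DUSP7. No share over all genes was taken at that threshold, so this count is not read as a result. DESeq2 called 1 member, DUSP1, higher at an adjusted p of 0.0414, where it called 131 of all genes higher. With the replicate block 2 members passed, DUSP1 and DUSP6, where 4.78% of all tested genes did. The DUSP1 interaction was 0.96 (SE 0.29, edgeR adjusted p = 0.250, and 0.000834 with the block at 0.94), and the dexamethasone effect was larger with TGF-β1 in 3 of 3 replicate numbers, by 0.58 to 1.46. DUSP6 had 0.88 (SE 0.50, edgeR adjusted p = 0.910, and 0.0384 with the block at 0.87), with 0.61 to 0.96 in the 3 numbers.

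DUSP5 had an interaction of 1.12 (SE 0.36, edgeR adjusted p = 0.306, and 0.0717 with the block) and DUSP4 one of 0.41 (SE 0.28, edgeR adjusted p = 1.00, and 0.0738 with the block). Both were positive in 3 of 3 replicate numbers, 1.04 to 1.5 for DUSP5 and 0.35 to 0.51 for DUSP4. DUSP7 had 0.32 (SE 0.15, edgeR adjusted p = 0.694). DUSP10, DUSP14 and DUSP8 had 0.13, 0.09 and 0.05, and DUSP16 had -0.06.

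**Figure D3:**
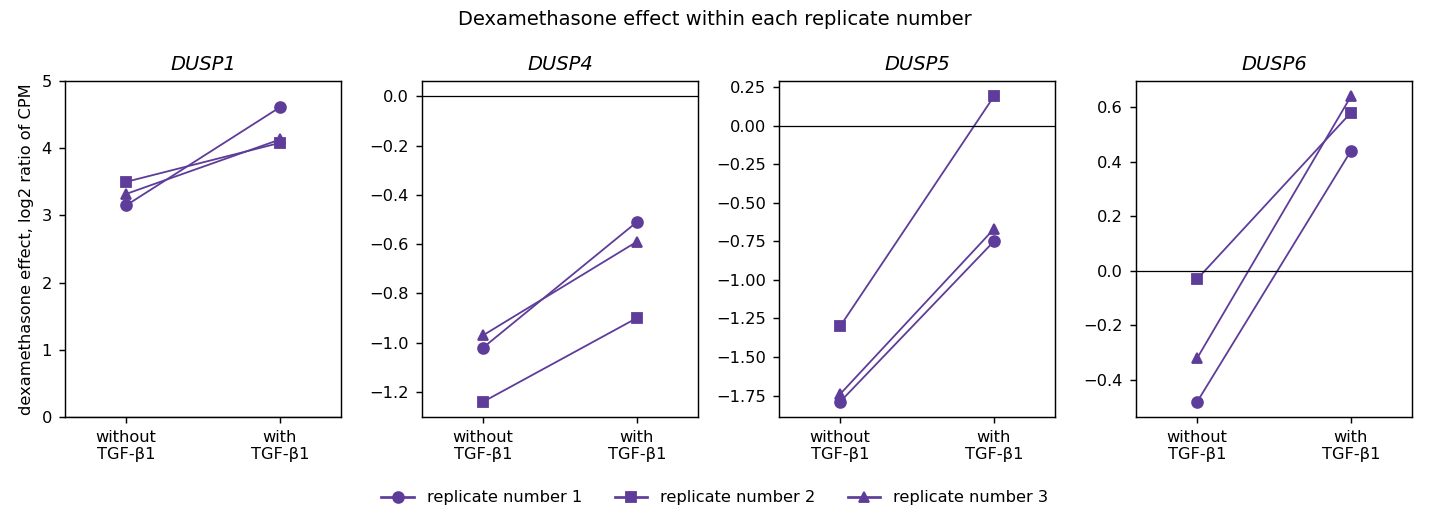
Dexamethasone effect (log2 ratio of CPM) without and with TGF-β1 for DUSP1, DUSP4, DUSP5 and DUSP6, with 1 line for each replicate number. All 12 lines rise from left to right, and for DUSP6 the 3 values change from between -0.48 and -0.03 to between 0.44 and 0.64. These genes are a selection of the tested members. Of those not drawn, DUSP7 rose in every replicate number (by 0.22 to 0.4). The change went both ways for DUSP8 (-0.44 to 0.69), DUSP10 (-0.11 to 0.44), DUSP14 (-0.06 to 0.44) and DUSP16 (-0.3 to 0.1).

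The make-up of the family's transcripts was described by summing CPM per kb over the 10 members in each library. The mean sum was 103.9 CPM per kb in control (range 93.0 to 117.1 over 3 libraries), 78.1 with TGF-β1 (73.2 to 87.55), 179.5 with dexamethasone (156.8 to 194.4) and 234.7 with both (187.8 to 263.8). The control and TGF-β1 libraries did not overlap, and the dexamethasone and combined libraries did. DUSP1 supplied 12.4% ± 0.419 (SD, n = 3) of the sum in control and 11.6% ± 3.64 with TGF-β1, against 71.9% ± 2.05 with dexamethasone and 72.8% ± 4.89 with both. DUSP4 and DUSP5 supplied 24.5% ± 2.73 and 27.0% ± 1.84 in control, and 2.56% ± 0.112 and 2.01% ± 0.335 with both.

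The members classed as preferring JNK and p38 were DUSP8, DUSP10 and DUSP16. DUSP1 and DUSP4, which also act on p38 and JNK, were classed as nuclear and are not counted with them. DUSP8, DUSP10 and DUSP16 supplied 11.03% ± 0.944 of the sum in control and 29.3% ± 2.06 with TGF-β1, of which DUSP10 was 20.5% ± 2.63. Their share was 4.94% ± 0.742 with dexamethasone and 10.3% ± 2.95 with both. Their own sum was 11.4 ± 0.339 CPM per kb in control, 22.8 ± 2.48 with TGF-β1, 8.78 ± 0.332 with dexamethasone and 23.5 ± 3.92 with both, so with both it was about as high as with TGF-β1 alone while DUSP1 filled most of the total. DUSP6 and DUSP7 together supplied 10.5% ± 1.20 in control and 16.7% ± 0.720 with TGF-β1. These shares are of transcripts and have no test.

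**Figure D4:**
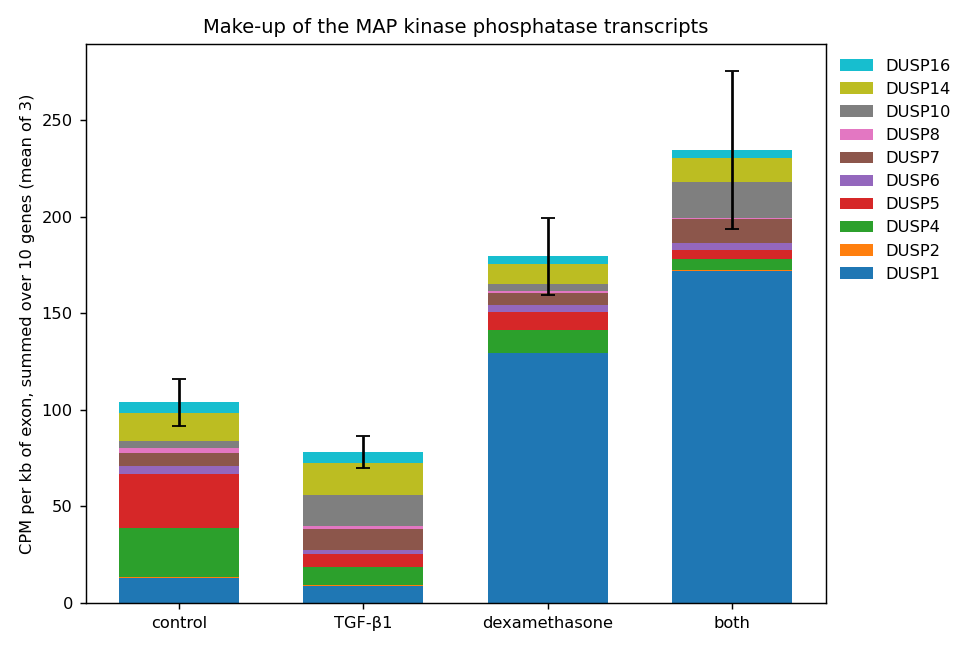
Mean CPM per kb of exon of each of the 10 phosphatase genes, stacked by group (n = 3 libraries, error bar SD of the sum, axis from 0). The DUSP1 segment is 12.9 in control and 172.0 with both, while the DUSP4 and DUSP5 segments go from 25.4 and 28.1 to 6.03 and 4.66.

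Genes outside the family were read from lists of the same signalling system, and each count stands against the 32.8% of all tested genes past the test with TGF-β1 and the 10.4% with dexamethasone (50.0% and 22.2% with the replicate block). Of 13 tested other dual-specificity phosphatases, 3 rose and 0 fell with TGF-β1 (23.1%, and 7 and 1 with the block), and 1 rose and 0 fell with dexamethasone (7.69%, and 1 and 1 with the block). That 1 was DUSP23, a small atypical phosphatase, which went from 19.4 ± 4.599 (SD, n = 3) CPM in control to 53.0 ± 10.8 with dexamethasone (1.46, SE 0.23, edgeR adjusted p = 0.00117). Of 7 other phosphatases that act on MAP kinases, 2 fell with TGF-β1 (PPM1B and PPP2R1B) and 2 rose with dexamethasone, 28.6% in each case. These were PPP2CB, a catalytic subunit of protein phosphatase 2A (0.85, SE 0.07, edgeR adjusted p = 1.34e-06), and PPM1B (0.41, SE 0.09, edgeR adjusted p = 0.00583).

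Of 18 ERK cascade genes, 4 rose and 1 fell with TGF-β1 (27.8%, where 32.8% of all tested genes passed, and 7 and 3 with the block). With dexamethasone 4 rose and 1 fell as well, where 10.4% of all tested genes passed. KSR1, a scaffold of the cascade, rose from 18.3 ± 2.94 to 45.1 ± 4.34 CPM with TGF-β1 and had 15.7 ± 1.497 CPM with both, an interaction of -1.22 (SE 0.21, edgeR adjusted p = 0.0136). RASA1, which switches off RAS, rose with TGF-β1 (0.57, edgeR adjusted p = 0.000900) and fell with dexamethasone (-0.71, edgeR adjusted p = 0.000413). Of 24 p38 and JNK cascade genes, 6 rose and 7 fell with TGF-β1 (54.2%), and 2 rose and 3 fell with dexamethasone (20.8%, and 5 and 6 with the block). MAP2K3 and MAP2K6, the kinases that activate p38, fell with dexamethasone by 1.38 and 1.55 on the log2 scale (edgeR adjusted p = 0.000264 and 0.00311).

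Of 11 kinases downstream of MAP kinases, 3 rose and 6 fell with TGF-β1 (81.8%, where 32.8% of all tested genes passed), among them MKNK2 (-1.35, edgeR adjusted p = 1.01e-06). With dexamethasone 2 rose and 0 fell (18.2%, where 10.4% of all tested genes passed, and 3 and 1 with the block), among them RPS6KA2 (1.97, edgeR adjusted p = 7.48e-05). Of 16 genes known to be switched on by ERK, 2 rose and 3 fell with TGF-β1 (31.2%, near the share of all genes, and 3 and 5 with the block), and 2 rose and 6 fell with dexamethasone (50.0%, and 2 and 9 with the block). IER3, an immediate-early gene, had 63.8 ± 15.5 CPM in control and 5.76 ± 0.988 with dexamethasone (-3.50, edgeR adjusted p = 6.41e-06). SPRY2, a feedback inhibitor of receptor tyrosine kinase signalling, had 12.9 ± 3.20 and 50.2 ± 6.86 CPM (1.98, edgeR adjusted p = 3.16e-05). SPRY1, of the same family, went the other way with dexamethasone (-2.29, edgeR adjusted p = 0.000281). FOS rose with it (2.59, edgeR adjusted p = 0.00194). Of 14 AP-1 and ETS genes, 5 rose and 0 fell with TGF-β1 (35.7%, near the share of all genes, and 7 and 1 with the block), among them JUNB (2.63, edgeR adjusted p = 1.23e-08). With dexamethasone 1 rose and 4 fell (35.7%, and 2 and 7 with the block), among them JUN (-0.86, edgeR adjusted p = 0.00268).

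Genes with the most similar profile were taken as those with the highest Pearson r of log2 CPM with a member over the 12 libraries, which share the 4 treatments, among 10097 candidates (10098 for DUSP8). DUSP1 was most like ZFP36L2 (r = 0.995), PER1 (0.989) and ARMC8 (0.985). DUSP10 was most like POFUT2 (0.994) and the collagen IV genes COL4A1 (0.993) and COL4A2 (0.993). DUSP4 was most like LRIG1 (0.984), DUSP5 most like DCLK2 (0.985), and DUSP7 most like RTKN (0.984). DUSP8 was most like SMAD3 (0.979), a mediator of TGF-β signalling, which had 192.2 CPM in control, 93.0 with TGF-β1, 70.3 with dexamethasone and 34.7 with both. DUSP14 was most like MAFK (0.958) and DUSP16 most like CILK1 (0.945).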

How the data were processed

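RNA from 12 libraries of BEAS-2B cells, 3 a group, was sequenced after polyadenylated RNA selection with a kit that does not keep strand, per the labels' protocols. The authors deposited raw counts of reads for each Entrez gene identifier, made with featureCounts on hg38, per the submitters' processing notes. The sources used here do not give the aligner, tool versions, annotation release, strand option or handling of reads shared by several genes. Of 18 count columns 12 matched a label, and 6 were not used. Symbols came from RefSeq (GRCh38.p14), which matched 27745 of 28395 identifiers holding 99.943% of counts. The labels' groups were used as given.

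All 12 libraries entered 1 edgeR 4.0.16 model (limma 3.58.1, R 4.3.3) with a mean per group, TMM scaling, robust quasi-likelihood dispersion and filterByExpr at a minimum count of 10, which kept 13469 genes. An adjusted p under 0.05 was the threshold, and the fit was tested on simulated counts. CPM use TMM-scaled library sizes. The SE comes from the fold change and the F statistic. Alternatives were DESeq2 1.42.0, DESeq2 size factors, library size alone, no filter, only the groups compared, the replicate block, and libraries left out. Scaling by library size alone moved the median gene by -0.217 with TGF-β1, -0.227 for both against dexamethasone and -0.271 for both against control. Replicate pairs differed beyond sampling noise (a chi-square of 5.81 to 17.8 for each degree of freedom). Whether replicate numbers pair the samples was checked from residuals after removal of the group mean: 18 of 18 pairs with the same number correlated over 0.1 (0.25 to 0.541), and different numbers had -0.422 to 0.042. The pairing comes from the data, and the labels name no shared batch. edgeR's common biological variation coefficient went from 0.122 to 0.0577 when the block was added.

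The members and the 15 gene lists were chosen with earlier results of these data known. All members are described. Other genes are named as at most 4 a list, those past the test with the largest change at a mean log2 CPM of at least 1, or as at most 3 most correlated genes a member at a mean log2 CPM of at least 3. Tables and figures used Python 3.11.15, pandas 2.3.3 and matplotlib 3.10.9.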

Additional observations from a re-analysis of the deposited data

Results flagged for a closer look

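The dexamethasone effect on 2 members differed between cells with and without TGF-β1 when the replicate number was fitted as a block. For DUSP1 the difference was 0.94 on the log2 scale (SE 0.14, edgeR adjusted p = 0.000834), the effect being larger with TGF-β1. For DUSP6 it was 0.87 (SE 0.23, edgeR adjusted p = 0.0384), between a dexamethasone effect of -0.32 without TGF-β1 and 0.56 with it, neither of which passed the test without the block. Without the block the adjusted p of the difference was 0.250 for DUSP1 and 0.910 for DUSP6. With libraries left out, the DUSP6 difference without the block ran from 0.48 to 1.17. Without control replicate 1, the highest control library of DUSP6, its dexamethasone effect was 0.092. In DUSP1 the TGF-β1 libraries without dexamethasone had the lowest mean (18.0 ± 4.68 CPM, SD, n = 3) and the combined libraries the highest (347.3 ± 77.8 CPM), and combined replicate 3, at 257.5 CPM, lay below dexamethasone replicates 1 and 2.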

How the results depend on the processing

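Of 1125 values of the 9 tested members under the alternatives, 1012 kept their direction and side of the threshold, 37 lost the call, 36 gained one and 40 changed sign. All 25 calls kept their sign in every alternative run. Leaving out all libraries of 1 replicate number was an alternative chosen after seeing the data. With the replicate block the members past the test were 5 lower for TGF-β1 against control (3 without it), 4 higher and 4 lower for both against TGF-β1 (1 and 2), 4 higher for both against dexamethasone (2) and 2 higher for the interaction (0), and beyond the calls given above the block changed no other call of a member. The 5 lower for TGF-β1 also came from library size alone and from DESeq2, the 4 lower for both against TGF-β1 also from library size alone, with 1 lower when only the groups compared were fitted, and DESeq2 gave 1 interaction. With libraries left out, the members lower ran from 2 to 5 for dexamethasone, 0 to 3 for both against TGF-β1 and 1 to 3 for both against dexamethasone.

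Over all genes, the block gave 3308 higher and 3433 lower for TGF-β1 (2186 and 2230 without it), 1461 and 1535 for dexamethasone (746 and 660), 1275 and 1078 for both against TGF-β1 (686 and 406), 3229 and 3498 for both against dexamethasone (2145 and 2207), and 406 and 238 for the interaction (65 and 54), where DESeq2 gave 131 higher. Library size alone gave 1251 and 4332 for TGF-β1, 1325 and 4472 for both against dexamethasone and 1416 and 5342 for both against control (2491 and 2434). With libraries left out, the counts higher and lower ran from 1239 to 2196 and 1171 to 2269 for TGF-β1, 399 to 786 and 294 to 743 for dexamethasone, 336 to 709 and 121 to 394 for both against TGF-β1, 1232 to 2197 and 970 to 2237 for both against dexamethasone, 1521 to 2558 and 1251 to 2484 for both against control, and 0 to 105 and 0 to 66 for the interaction.

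The sign changes were in effects that did not pass the test. For TGF-β1, library size alone gave -0.036 for DUSP14 and -0.16 for DUSP16. For both against dexamethasone, DUSP6 (-0.0037) became 0.012 with DESeq2 size factors, 0.0024 with no filter, 0.068 with the block and 0.0020 with only the groups compared, and DUSP16 (-0.0075) became 0.011, 0.0093 with DESeq2 and 0.0030 with only the groups compared. With libraries left out, these 2 ran from -0.26 to 0.28 and -0.084 to 0.091, DUSP16 with TGF-β1 from -0.049 to 0.14, DUSP6 from -0.61 to 0.092 with dexamethasone and -0.58 to 0.092 with both, DUSP10 with dexamethasone from -0.018 to 0.27, and the interactions of DUSP8 from -0.36 to 0.36, DUSP10 from -0.0026 to 0.30, DUSP14 from -0.046 to 0.21 and DUSP16 from -0.14 to 0.091. The causes were not tested. DUSP2, at 0 to 12 reads a library, and DUSP8, at 61 reads in the combined group, are limited by depth.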

Other observations

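Replicate numbers left a mark on single members in all 4 groups. DUSP1 and DUSP4 were lowest in replicate 3, the deeply sequenced library, in 4 of 4 groups, and DUSP14, like DUSP6, was highest in replicate 1 in 4 of 4. DUSP8 was lowest in replicate 3 in 1 of 4 groups and highest there in 2. Replicate 3 had the most counts, and the part of depth in these levels was not tested.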
